A study of Mus musculus with 18 samples.

Results

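The genes described here mark the epithelial cells of the conducting airways: Scgb1a1, Scgb3a1, Scgb3a2 and Cyp2f2 for club cells, and Foxj1, Dnahc5, Tekt1 and Tppp3 for ciliated cells. They were chosen by name, and each was read from the probe set whose only gene symbol is that gene (Dnahc5 stands in the annotation under its current symbol, Dnah5). Each of the 8 genes had 1 such probe set, among 35556 probe sets on the array, of which 21789 carry 1 gene symbol, 19938 genes in all. All 8 passed the filter on low values, which cut at the 35th percentile of an array. Dnahc5 lay closest to that cutoff, between percentiles 39.2 and 54.1 of the single arrays.

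The study asked how SREBP, the transcription factors that switch on lipid synthesis, act in the lung around birth. SCAP escorts SREBP out of the endoplasmic reticulum for activation, and the INSIG proteins hold SCAP back there. RNA of the whole lung was hybridized to Affymetrix mouse gene arrays, and 18 arrays in 6 groups of 3 lungs were analysed here. Values are log2 expression as deposited, so a step of 1 is a doubling, and levels of different probe sets are not compared.

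Mice called Scap Δ/Δ carry Scap flox/flox together with the SP-C-rtTA and (tetO)7CMV-Cre transgenes, on a mixed strain background, and were collected at E18.5 or at PN1, the day of birth. Their controls are Scap flox/flox littermates that lack rtTA or Cre. Mice called Insig1/2 Δ/Δ carry the same transgenes with Insig1 flox/flox, were collected at E17.5, and lack Insig2 from the germ line, as do their controls. All dams received doxycycline early in gestation, and it was withdrawn well before collection. Recombination is thus driven by the SP-C promoter in early lung epithelium, deletion was stated to be incomplete, and RNA of every other lung cell is on the array too. In such RNA, fewer cells of a type and less RNA per cell cannot be told apart.

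Club cells are secretory cells of the bronchioles. They release secretoglobins into the airway lining and oxidize inhaled chemicals through cytochromes P450, and they renew themselves and give rise to ciliated cells. Ciliated cells carry motile cilia whose axoneme holds dynein motors, radial spokes and a central pair of microtubules, and FOXJ1 together with RFX factors switches on the genes for these parts. In the mouse both cell types appear before birth.

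The targeted genes followed the labels. Scap was at 9.22 to 9.47 in the E18.5 Scap Δ/Δ lungs against 9.71 to 9.75 in their controls, and at 9.53 to 9.65 against 9.76 to 9.92 at PN1. Insig1 was at 8.21 to 8.58 in the Insig1/2 Δ/Δ lungs against 9.29 to 10.002 in controls. On all 18 arrays the surfactant gene Sftpc was at 13.28 to 13.50 and the lung factor Nkx2-1 at 10.70 to 11.23. At PN1 the Scap Δ/Δ arrays KO17 and KO18 stood apart, with r over all probe sets of 0.994 with each other and 0.931 to 0.960 with the other 16, while r was 0.973 or more among those 16. On KO24 the mean of 6 oesophagus genes lay 2.18 above its average over 18 arrays, against -0.25 to 0.07 on the other 17, and on C21 the mean of 7 cardiac muscle genes lay 1.84 above its average. Differences that rest on these arrays are given with and without them.

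Among the club cell genes, Cyp2f2 lay slightly lower in every Scap Δ/Δ lung than in the controls of its age, and Scgb1a1 of deleted and control lungs overlapped at every age. Scgb3a1 varied up to 16.5-fold between single lungs, with high and low lungs in every group. Scgb3a2 moved within 0.88 on the log2 scale over all 18 arrays.

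Scgb1a1 encodes the club cell secretory protein, the main secretoglobin of the bronchioles (GRCm38.p6 chr19:9083642-9087956). At E17.5 its log2 level was 11.95, 12.26 and 12.82 in Insig controls and 12.04, 12.97 and 12.99 in Insig1/2 Δ/Δ lungs. At E18.5 it was 13.07, 12.999 and 13.08 in Scap controls and 12.97, 13.11 and 13.09 in Scap Δ/Δ lungs. At PN1 it was 13.15, 13.23 and 13.18 in controls and 13.18, 13.37 and 13.35 in Scap Δ/Δ lungs. Control and deleted lungs overlapped at each age. The E17.5 lungs fell apart across genotype, with C19, C20 and KO22 low and C21, KO23 and KO24 high. The 4 Scap groups had the higher means, with KO10 just under KO24, but line and age differ together there and cannot be told apart.

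Cyp2f2 encodes a cytochrome P450 that is abundant in mouse club cells and activates naphthalene (chr7:27119955-27133660). Its log2 level at E17.5 was 12.28, 12.41 and 12.74 in controls and 12.12, 12.76 and 12.84 in Insig1/2 Δ/Δ lungs. The low and the high lungs were those of Scgb1a1. At E18.5 Cyp2f2 was at 12.79, 12.78 and 12.74 in controls and 12.72, 12.70 and 12.62 in Scap Δ/Δ lungs. At PN1 it was at 13.12, 13.08 and 13.04 in controls and 12.80, 12.93 and 12.93 in Scap Δ/Δ lungs. At both ages every Scap Δ/Δ lung lay below every control, by a mean of 0.09 at E18.5 and 0.20 at PN1. At PN1, KO16 was the lowest of the deleted lungs for Cyp2f2, below KO17 and KO18.

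Scgb3a1 encodes a secretoglobin of the larger airways (chr11:49663595-49665118, plus strand). Its log2 level at E17.5 was 8.52, 8.44 and 11.43 in controls and 8.58, 9.80 and 12.13 in Insig1/2 Δ/Δ lungs. E18.5 levels were 10.09, 11.47 and 9.66 in controls and 10.54, 12.33 and 11.12 in Scap Δ/Δ lungs. On the day of birth it was 10.15, 12.49 and 10.37 in controls and 11.96, 9.10 and 10.41 in Scap Δ/Δ lungs. The lungs of each group lay far apart, by 1.79 to 3.55 between the lowest and the highest, and all groups overlapped. The high lungs at E17.5 were C21 and KO24, the arrays with the highest cardiac and the highest oesophageal marker levels, and without both the Insig1/2 difference was 0.71, as with them. The SD within groups was 1.39, the second largest of 22717 probe sets that passed the filter, whose median was 0.16. Reg3g, an antimicrobial lectin of airway secretory cells, had the most similar pattern (Pearson r = 0.93 over 18 arrays and 0.96 after group means were subtracted). Reg3g was at 10.59 on KO24, 10.93 on KO11, 10.88 on C14 and 10.03 on KO16, which are the arrays with the highest Scgb3a1, and at 6.58 on KO17. Next in likeness were Tnnt1 (r = 0.85), Fabp4 (0.845), Fabp3 (0.84 and 0.83), Hspb2 (0.83) and the cardiac muscle genes Tnni3 (0.83) and Myl4 (0.83). Among arrays with high Scgb3a1, the mean of 7 cardiac muscle genes was 1.84 on C21, 0.27 on C14, 0.21 on KO24 and 0.18 on KO11. It was -0.01 on KO16 and -0.22 on C8, where Scgb3a1 was also high, and 0.33 on KO18, with Scgb3a1 at 10.41. The mean of 14 cartilage genes of the large airways stayed between -0.09 and 0.10 on all arrays. The part of tissue sampling in the spread was not tested. These likenesses, for single genes, were chosen after their values were seen.

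The 250 bases before the RefSeq start of Scgb3a1 (GRCm38.p6, chr11:49663345-49663594, plus strand) are shown because it is the club cell gene with the widest spread. Capitals mark letters of 2 motifs, both here on the minus strand: CTCAAG, the core of the NKX2-1 motif, 172 to 167 bases before the start, and TGTTTGC, a forkhead motif, 55 to 49 bases before it.
Scgb3a1: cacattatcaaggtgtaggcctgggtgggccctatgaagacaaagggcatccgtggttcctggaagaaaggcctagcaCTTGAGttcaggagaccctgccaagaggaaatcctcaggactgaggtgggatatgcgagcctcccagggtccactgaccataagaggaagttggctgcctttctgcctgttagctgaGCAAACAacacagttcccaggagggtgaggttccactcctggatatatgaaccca
On both strands CTCAAG was found in 13.33% of 32851 windows of this length in the RefSeq table and TGTTTGC in 4.3%. The window of Cyp2f2 held none of the 5 motifs searched (these with GTTGCC, GTTGCCAT and TGTTTAC, another forkhead motif, found in 3.17% of windows).

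Scgb3a2 encodes a secretoglobin that appears early in the developing airways (chr18:43764301-43767399). Its log2 level at E17.5 was 9.93, 9.998 and 10.20 in controls and 9.92, 10.19 and 10.38 in Insig1/2 Δ/Δ lungs. The E18.5 lungs were at 10.27, 10.39 and 10.10 in controls and 10.27, 10.79 and 10.58 in Scap Δ/Δ lungs. PN1 levels were 10.03, 10.49 and 10.18 in controls and 10.33, 9.998 and 10.25 in Scap Δ/Δ lungs. All groups overlapped with their controls, and neighbours in the order of the 6 group means all overlapped. Scgb3a2 followed Scgb3a1 from lung to lung (r = 0.86 over 18 arrays, 0.89 within groups), while Scgb1a1 followed Cyp2f2 (r = 0.89 and 0.96). Across these pairs r was from 0.32 to 0.59 over 18 arrays and from 0.39 to 0.74 without KO17 and KO18, where the pairs themselves had 0.845 and 0.884. The 18 points share array and normalization.

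**Figure D1:**
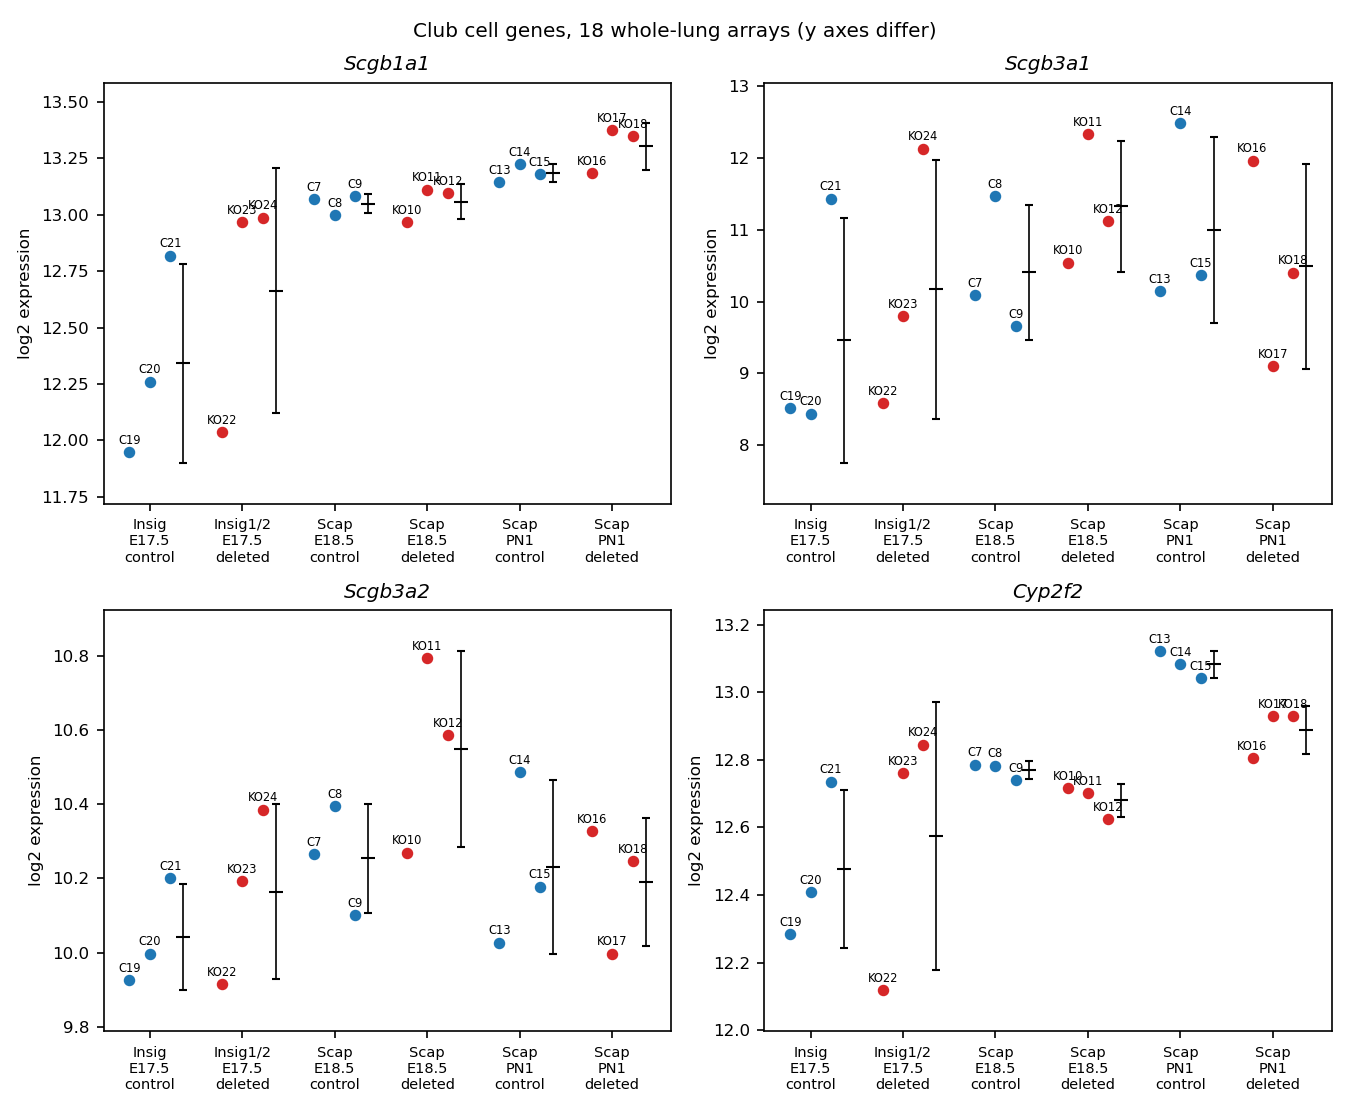
Log2 expression of the 4 club cell genes (y axis, a scale of its own in each panel) on each of the 18 arrays, in 6 groups (x axis), with controls in blue, deleted lungs in red and the mean ± SD (n = 3) in black. Scgb3a1 spans 8.44 to 12.49 with high and low lungs in each group, while Cyp2f2 of Scap Δ/Δ lungs lies just below that of controls at E18.5 and PN1.

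Among the ciliated cell genes, Tppp3, Dnahc5 and Tekt1 showed the widest gaps between neighbours in the order of the group means. Tekt1 and Foxj1 were lowest on KO17 and KO18, and Tppp3 was low there only among the PN1 lungs. Dnahc5, the dynein gene, went its own way and was highest in the E17.5 controls.

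Foxj1 encodes the forkhead factor that drives motile ciliogenesis (chr11:116330704-116335499). Its log2 level at E17.5 was 9.02, 9.15 and 9.14 in controls and 8.94, 9.15 and 9.14 in Insig1/2 Δ/Δ lungs. At E18.5 the level was 9.34, 9.44 and 9.27 in controls and 9.46, 9.35 and 9.26 in Scap Δ/Δ lungs. The PN1 lungs were at 9.10, 9.26 and 9.25 in controls and 9.44, 8.87 and 8.86 in Scap Δ/Δ lungs. Control and deleted lungs overlapped at every age, and the deleted lungs at PN1 split, with KO16 above and KO17 and KO18 below all controls.

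Tekt1 encodes tektin 1, a filament protein inside the tubules of the cilium (chr11:72344717-72362442, minus strand). At E17.5 its log2 level was 8.37, 8.37 and 8.43 in controls and 8.39, 8.40 and 8.60 in Insig1/2 Δ/Δ lungs. At E18.5 values were 8.56, 8.59 and 8.55 in controls and 8.86, 9.002 and 8.94 in Scap Δ/Δ lungs. At PN1 the level was 8.30, 8.48 and 8.22 in controls and 8.67, 7.94 and 8.04 in Scap Δ/Δ lungs. All Scap Δ/Δ lungs of E18.5 were above the controls, and at PN1 they fell on both sides, KO16 above and KO17 and KO18 below. Genes most like Tekt1 over the 18 arrays included Hspb11 (r = 0.98), Tmem107 (r = 0.97) and Bbs5 (r = 0.97). They serve transport into the cilium, its transition zone and the BBSome, and were chosen after their values were seen. The 8 closest also held Usp3 (r = 0.97), Zfp943 (0.96), Clta (0.96) and Rpa3 (0.96), which were not picked for a cilium role, and the listed ciliated gene 1700016K19Rik (0.96).

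The 250 bases before a RefSeq start of Tekt1 that lies inside the gene's outer span (chr11:72361883-72362132, minus strand) are shown because they hold letters of the X-box, the motif that RFX factors bind at cilia genes. Capitals mark GTTGCCAT 15 to 8 bases before the start, the core GTTGCC (here on the opposite strand) 35 to 30 bases before it, and the forkhead motif TGTTTGC 98 to 92 bases before it. GTTGCC is also the first part of GTTGCCAT.
Tekt1: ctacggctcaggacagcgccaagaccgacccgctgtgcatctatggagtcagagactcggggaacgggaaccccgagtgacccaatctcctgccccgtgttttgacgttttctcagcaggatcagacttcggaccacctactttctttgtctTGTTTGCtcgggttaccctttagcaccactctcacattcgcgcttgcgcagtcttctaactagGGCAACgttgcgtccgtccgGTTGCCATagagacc
GTTGCCAT was found in 1.12% of the 32851 windows and GTTGCC in 10.43%, on either strand. Counted by gene, GTTGCC stood in a window of 29 of 71 other ciliated cell genes (40.8%), of 1 of 34 other club cell genes (2.9%) and of 11.8% of all 27025 genes with a window. Of the 71, 7 held GTTGCCAT (9.9%), against 1.3% of all. The window of a second Tekt1 start and that of Dnahc5 held none of the 5 motifs.

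Tppp3 encodes a protein that bundles microtubules and is abundant in ciliated cells (chr8:105467492-105471422). Its log2 level at E17.5 was 11.13, 11.13 and 11.41 in controls and 10.95, 11.43 and 11.64 in Insig1/2 Δ/Δ lungs. E18.5 lungs read 11.78, 11.81 and 11.68 in controls and 11.64, 11.95 and 11.94 in Scap Δ/Δ lungs. At PN1 values were 12.30, 12.40 and 12.24 in controls and 12.32, 11.75 and 11.38 in Scap Δ/Δ lungs. KO16 lay within the controls and KO17 and KO18 far below them. Genes most like Tppp3 included Anxa3 (r = 0.98) and the club cell enzyme Aldh1a1 (r = 0.96), again chosen after their values were seen. Over 18 arrays its r was 0.78 with Cyp2f2 and 0.21 with Tekt1.

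Dnahc5 encodes a heavy chain of the outer dynein arm, the motor of ciliary beating (chr15:28154854-28472045). At E17.5 its log2 level was 7.73, 7.71 and 7.70 in controls and 7.60, 7.14 and 7.20 in Insig1/2 Δ/Δ lungs. At E18.5 it was 7.36, 7.38 and 7.16 in controls and 7.37, 7.19 and 7.01 in Scap Δ/Δ lungs. PN1 lungs read 7.39, 6.92 and 7.01 in controls and 6.92, 7.07 and 7.42 in Scap Δ/Δ lungs. The E17.5 controls lay above all other lungs, and the Scap groups overlapped at both ages.

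**Figure D2:**
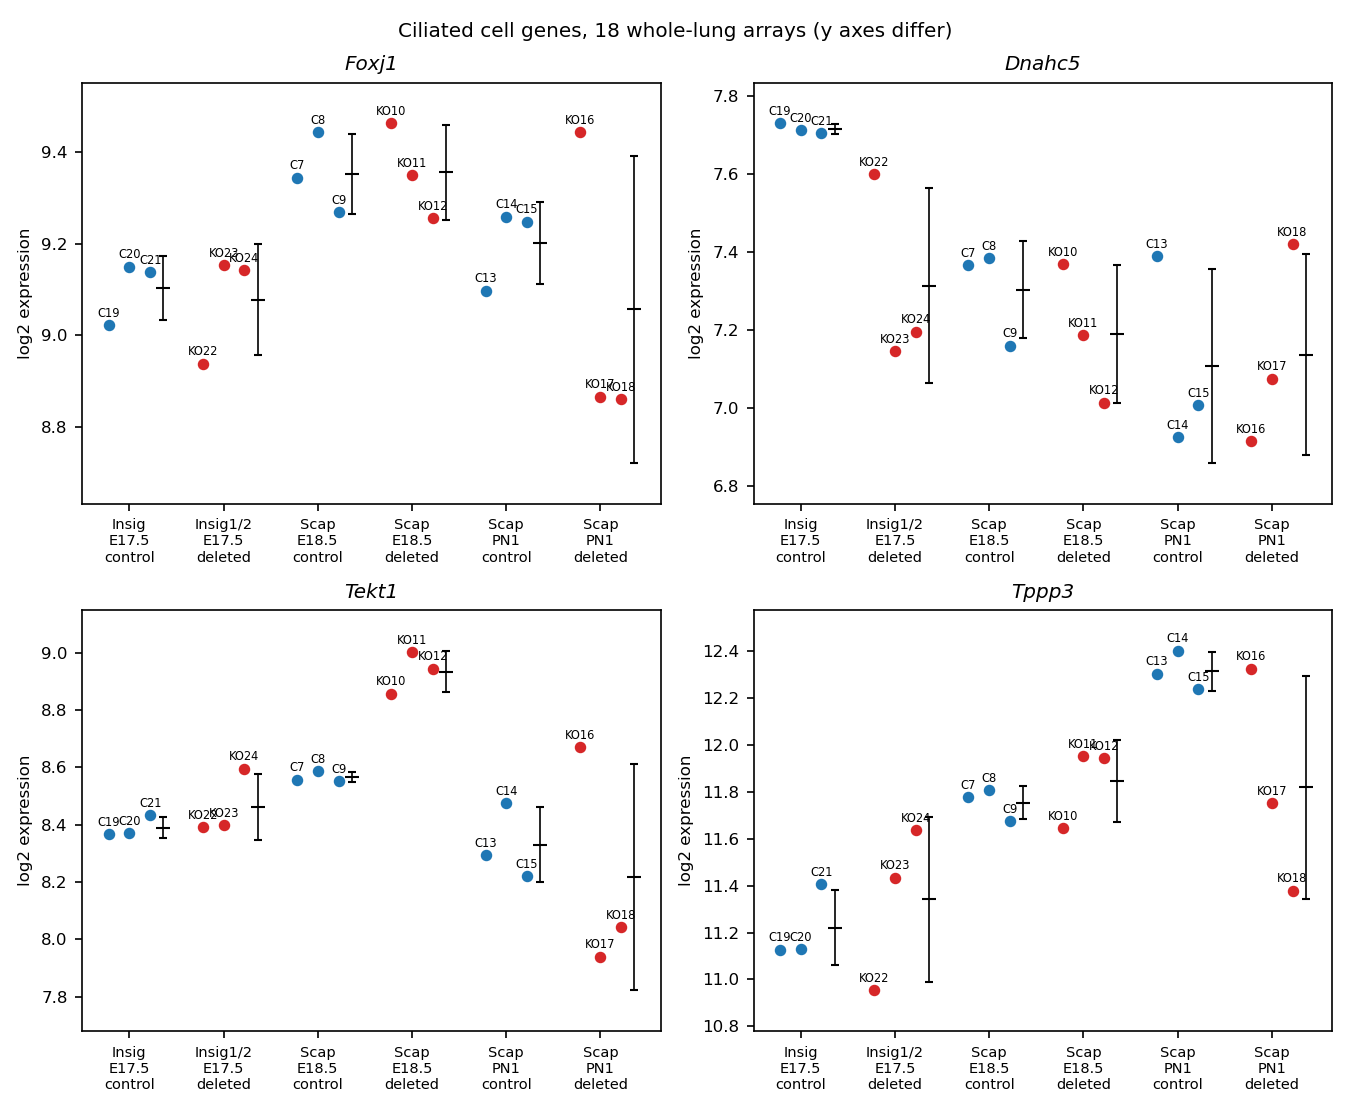
Log2 expression of the 4 ciliated cell genes (y axis, a scale of its own in each panel) on each of the 18 arrays, in 6 groups (x axis), with controls in blue, deleted lungs in red and the mean ± SD (n = 3) in black. Foxj1 and Tekt1 are lowest on KO17 and KO18, Tppp3 is low there only among the PN1 lungs, and Dnahc5 is highest, at 7.70 to 7.73, in the 3 Insig controls.

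When the 6 groups were ordered by mean, 10 of 40 neighbouring pairs over the 8 genes did not overlap. The share over all probe sets was not computed, so this count cannot be read as a trait of these genes. For Tekt1 the E18.5 Scap Δ/Δ group stood above all others (step 0.37). For Dnahc5 the step without overlap led from the Insig1/2 Δ/Δ group to the Insig controls (0.40). For Foxj1 it led from the PN1 to the E18.5 Scap controls (0.15). For Tppp3 the steps without overlap led from the E17.5 groups to the E18.5 controls (0.41) and from E18.5 Scap Δ/Δ to PN1 control lungs (0.47). For Scgb1a1 they were the same 2 steps, at 0.39 and 0.13. For Cyp2f2 the 4 Scap groups were ordered without overlap, from E18.5 Scap Δ/Δ through E18.5 control and PN1 Scap Δ/Δ to PN1 control, with steps of 0.09, 0.12 and 0.20.

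No airway gene passed the test for an effect of Scap deletion at E18.5. In limma with Benjamini-Hochberg adjustment over all probe sets, 0 of 8 had an adjusted p under 0.05, where 0.00877% of 22800 probe sets did, and an unmoderated test in the same fit also called 0 of 8. At an unadjusted p under 0.05 it was 1 of 8, Tekt1, against 9.24% of all. Tekt1 was 0.37 higher (SE 0.16, 1.29-fold, adjusted p = 0.54 by limma) and higher in 9 of 9 pairs of a deleted and a control lung. Cyp2f2 was 0.09 lower (SE 0.07, adjusted p = 0.661 by limma). These were the 2 of 8 genes whose groups did not overlap, a pattern seen in 35.5% of all probe sets, and with 3 against 3 lungs the exact two-sided permutation test gave 0.1 for both, the smallest p it allows. Scgb3a1 was 0.92 higher, with a 95% interval from -0.91 to 2.76. For Scgb1a1 the interval was -0.16 to 0.18 and for Foxj1 -0.32 to 0.32. Median differences were 0.15 for the 4 club and 0.05 for the 4 ciliated genes, against -0.04 for all probe sets.

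Among other genes of both cell types more lay above than below their controls at E18.5. Of 78 other ciliated cell genes tested (82 with a probe set), 51 were above 0 with a median of 0.06 (41.7% of all probe sets were above 0). Without overlap 19 lay above and 3 below their controls, in all a smaller share than the 35.5% of all probe sets (14.5% of all probe sets lay above). Pifo (0.66), Capsl (0.57) and Mlf1 (0.43) had the largest such gaps, and 0 of the 78 were called, with 3 at an unadjusted p under 0.05 (9.24% of all probe sets) (adjusted p of the named genes from 0.536 to 0.678 by limma). Of 41 other club and secretory genes tested (47 with a probe set), 30 were above 0 with a median of 0.11, and 0 were called (6 at an unadjusted p under 0.05). Agr2, which encodes a disulfide isomerase of mucus-secreting cells, was at 8.42, 8.80 and 8.17 in controls and 10.37, 11.13 and 10.76 after Scap deletion, 2.29 higher (adjusted p = 0.511 by limma). The xenobiotic P450 Cyp2b10 (0.62) and the tetraspanin Tspan1 (0.58) were next. Of 10 type II cell genes 4 were above 0 at this age, and their list means were 0.20 to 0.33 in controls and 0.05 to 0.15 in Scap Δ/Δ lungs. The part of this in the gaps was not tested.

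At PN1, too, no airway gene passed the test for Scap deletion: 0 of 8 had an adjusted p under 0.05 by limma, beside 0.00877% of all probe sets, and 0 of 8 by the unmoderated test. Unadjusted, 2 of 8 did, against 32.3% of all. Cyp2f2 was 0.20 lower (SE 0.07, 0.873-fold, adjusted p = 0.103 by limma), lower in 9 of 9 pairs. Its groups were the only ones of the 8 without overlap, where 16.6% of all probe sets had none. Tppp3 was 0.49 lower (SE 0.19, adjusted p = 0.121 by limma), lower in 7 of 9 pairs. Scgb1a1 was 0.12 higher (adjusted p = 0.286 by limma) and -0.01 after median centring.

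The PN1 values of the ciliated genes rest on which deleted lungs are counted. Without KO17 and KO18, Tekt1 turned to 0.34 higher, Foxj1 to 0.24 higher and Tppp3 to 0.01 higher (n = 1 deleted lung, assumed to vary like the other groups). Without KO16, 5 of 8 genes passed, beside 61.9% of all probe sets: Tppp3 (-0.75), Tekt1 (-0.34), Foxj1 (-0.34) and Cyp2f2 (-0.15) lower and Scgb1a1 (0.18) higher. Cyp2f2 kept its direction in both, at -0.28 without KO17 and KO18.

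Other ciliated cell genes at PN1 were mostly lower in Scap Δ/Δ lungs, with 11 of 78 above 0 (42.1% of all probe sets), a median of -0.24 against -0.06 for all probe sets, and 0 called. At an unadjusted p under 0.05 there were 22 of the 78, 20 of them lower, a share no higher than the 32.3% of all probe sets. List means were -0.03 on KO16, -0.58 on KO17 and -0.54 on KO18 against -0.22 to -0.07 in controls. Without KO17 and KO18, 50 of 78 were above 0, at a median of 0.09. Without overlap, Armc3 (-0.51), Cdhr3 (-0.43) and Kif27 (-0.29) lay lowest. Among other club genes 12 of 41 were above 0, with a median of -0.20 and 0 called (13 at an unadjusted p under 0.05, near the share of all probe sets). Club list means were 0.26 on KO16, within the 0.09 to 0.39 of controls, and -0.17 on KO17 and -0.12 on KO18. The lower club values thus lay on KO17 and KO18. Pon1, paraoxonase 1, was at 11.20, 11.35 and 11.05 in controls and 10.29, 8.08 and 8.21 in Scap Δ/Δ lungs, 2.34 lower (adjusted p = 0.0897 by limma). Agr2 was at 7.498, 9.68 and 7.39 in controls and 10.55, 9.85 and 9.83 in Scap Δ/Δ lungs, 1.89 higher (adjusted p = 0.0901 by limma), and Chad was 0.92 lower. Type II list means (0.02 on KO16, -0.43 on KO17, -0.47 on KO18, 0.21 to 0.23 in controls) moved with these values, and their part was not tested.

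**Figure D3:**
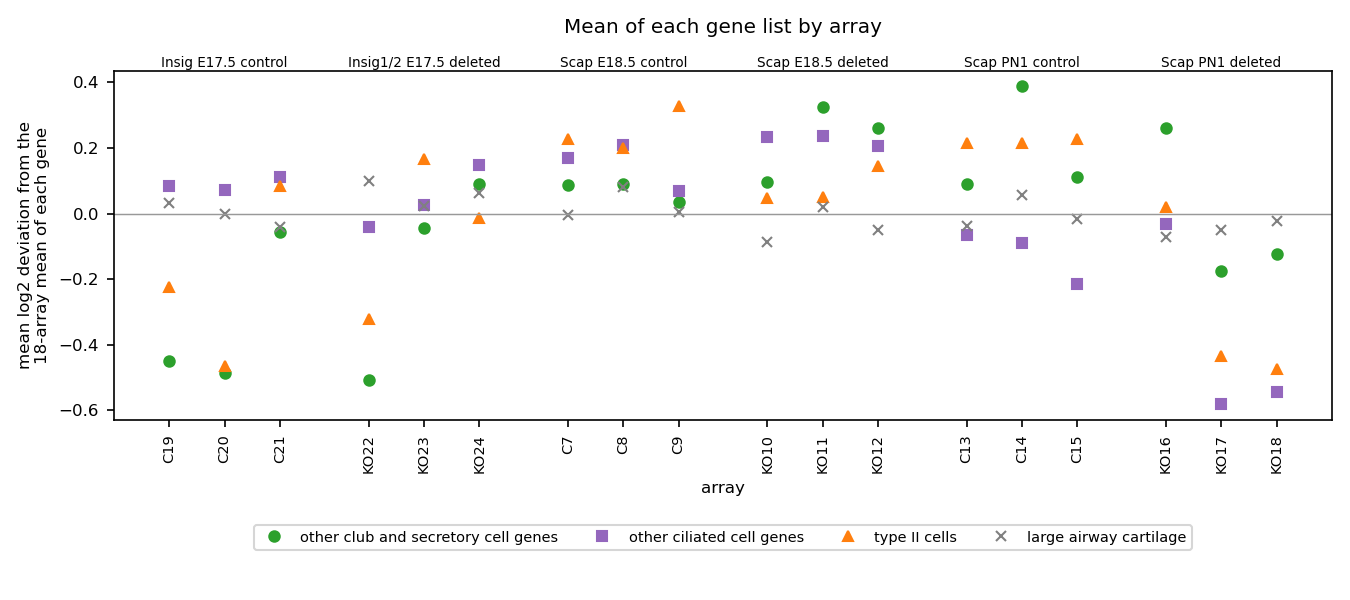
Mean log2 deviation of each list from its genes' averages over 18 arrays (y axis), by array (x axis, in 6 groups), for 47 other club and secretory genes (circles), 82 other ciliated cell genes (squares), 10 type II cell genes (triangles) and 14 large airway cartilage genes (crosses). Ciliated cell genes reach -0.58 and -0.54 on KO17 and KO18, club genes -0.45 to -0.51 on C19, C20 and KO22, and the cartilage list stays near 0.

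The Scap effect was not shown to differ between the ages for any airway gene. In the interaction fit 0 of 8 genes passed, as did 0% of all probe sets, and 0 of 8 had an unadjusted p under 0.05, against 18.3% of all. Tppp3 (-0.59, SE 0.27) and Tekt1 (-0.48, SE 0.23) came closest, both at an adjusted p of 0.265 by limma. Without KO17 and KO18 they were -0.08 and -0.03 (adjusted p = 0.9999 by limma for both), and 0 of 8 passed. Without KO16 they became -0.84 and -0.71, and 3 genes passed, Foxj1 at -0.34 with them, beside 58.4% of all probe sets.

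From E18.5 to PN1 the Scap controls gained Cyp2f2: it rose by 0.31 (SE 0.07, 1.24-fold, adjusted p = 0.0407 by limma), from 12.77 ± 0.03 to 13.08 ± 0.04 (SD, n = 3). It was 1 of 8 genes called, beside 2.58% of all probe sets. Unadjusted, 2 of 8 passed, against 13.5%. The other was Tppp3, 0.56 higher (SE 0.19, adjusted p = 0.198 by limma). The groups did not overlap for 5 of 8 genes, against 34.1% of all: Scgb1a1 (0.13), Cyp2f2 and Tppp3 were higher, Foxj1 (-0.15) and Tekt1 (-0.24) lower. The call of Cyp2f2 was lost when any 1 array was left out (adjusted p from 0.1 to 0.17), with differences between 0.29 and 0.33.

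Among other airway genes of the controls, club genes were called in both directions and ciliated genes mostly lay lower. The collectin Sftpd, which club and type II cells share, was at 11.05, 10.96 and 11.29 at E18.5 and 11.74, 12.07 and 12.03 at PN1, and rose by 0.84 (adjusted p = 0.0107 by limma). Lrrc26 (0.82), Cyp2b10 (0.76) and the GABA receptor subunit Gabrp (0.59) rose, and the tight junction gene Cldn10 fell by 0.96, in all 4 of 41 higher and 1 lower, beside 1.19% and 1.39% of all probe sets. Of 78 other ciliated cell genes 6 were above 0, with a median of -0.26, where 52.1% of all probe sets were above 0. Without overlap 46 of the 78 were lower, against 16.5% of all probe sets. Ccdc39 (-0.82), needed for dynein assembly, the transcription factor gene Rfx3 (-0.51) and Cdhr3 (-0.39) fell, while Tuba1a (0.54), a tubulin that other cells also use, rose. With any 1 array left out, 0 to 5 of the 78 were called. At PN1 all 7 cardiac muscle genes (median 0.44, 0 called) and all 7 neutrophil genes (median 1.38, 3 called) were also above 0, and their part was not tested.

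In Scap Δ/Δ lungs, PN1 against E18.5, 3 of 8 genes passed, beside 37.6% of all probe sets. Scgb1a1 rose by 0.25 (SE 0.08, adjusted p = 0.034 by limma), Cyp2f2 rose by 0.21 (SE 0.07, adjusted p = 0.039 by limma), and Tekt1 fell by 0.72 (SE 0.16, 0.608-fold, adjusted p = 0.0134 by limma). Unadjusted, 4 of 8 passed, against 52.5%, with Scgb3a2 (-0.36) the fourth. The groups did not overlap for the 3 called genes, against 34% of all. The share of members called, 3 of 8, is near that of all probe sets. Without KO17 and KO18 none of the 8 passed, and Tekt1 was at -0.26. After median centring Scgb1a1 (0.07) and Cyp2f2 (0.03) no longer passed, and Scgb3a2 (-0.53) did. Without KO11, KO17 or KO18 in turn 0 of 8 passed, without KO12 1 did, and without KO16 5 did (72.1% of all probe sets).

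The other ciliated cell genes of the Scap Δ/Δ lungs had a median difference of -0.68 from E18.5 to PN1, with 53 of 78 called lower and 2 called higher, where 20.1% of all probe sets were called lower and 17.5% higher. Other lists moved too, with 4 of 10 type II cell genes called lower and 5 of 7 neutrophil genes called higher, and their part was not tested. Sntn, a protein of the ciliary tip, was at 9.35, 10.06 and 10.13 at E18.5 and 8.72, 6.62 and 7.07 at PN1, and fell by 2.38 (adjusted p = 0.00775 by limma). Dnali1 (-1.49), Capsl (-1.45), Ak7 (-1.38), Iqcg (-1.35) and Rsph4a (-1.35) fell too. Without KO17 and KO18, 6 were called lower and 1 higher, at a median of -0.22, beside 6.2% of all probe sets. Among 41 other club genes 11 were called lower and 3 higher, in all a share below the 37.6% of all probe sets. Pon1 (-1.98), Cldn10 (-1.17), Aldh1a7 (-0.97), Gsta4 (-0.96), Selenbp1 (-0.89) and Ldhb (-0.78) fell most. With those 2 arrays left out, 2 were called lower and 1 higher. The control and the Scap Δ/Δ comparison of ages use different lungs, and the difference between them is the interaction given above.

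At E17.5 no airway gene passed the test for Insig1/2 deletion. In limma 0 of 8 genes, and 0% of 22775 probe sets, had an adjusted p under 0.05, and the methods' t-test (used by the study for this line) called 0 of 8. Unadjusted, 1 of 8 did, Dnahc5, against 4.1% of all. Dnahc5 was 0.40 lower (SE 0.13, 0.757-fold, adjusted p = 0.758 by limma) and was the 1 gene of 8 without overlap, against 10% of all. The 4 club genes were all above 0 (0.10 to 0.71), as were 54.4% of all probe sets. Their intervals ran from -0.46 to 1.10 for Scgb1a1 and from -2.02 to 3.43 for Scgb3a1. Without C21 and KO24, an alternative chosen after seeing the data, 0 of 8 passed as well, and Dnahc5 was at -0.35.

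Of 41 other club genes 36 were above 0 in Insig1/2 Δ/Δ lungs, with a median of 0.16 and 0 called (0 also at an unadjusted p under 0.05). Of all probe sets 54.4% were above 0, with a median of 0.01. Their list means followed the split of Scgb1a1, from -0.51 to -0.45 on C19, C20 and KO22 and from -0.06 to 0.09 on C21, KO23 and KO24. Type II list means split in the same way, from -0.46 to -0.22 and from -0.01 to 0.17. Of 79 other ciliated cell genes 34 were above 0 and 0 were called (7 at an unadjusted p under 0.05, against 4.1% of all probe sets). Without overlap 10 were lower and 0 higher, against 4.22% and 5.83% of all, among them Dnahc6 (-0.39), Dnahc9 (-0.37) and Traf3ip1 (-0.22). Without C21 and KO24 32 of 40 club genes and 19 of 79 ciliated genes were above 0, and without KO24 alone 25 of 40 and 18 of 79.

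**Figure D4:**
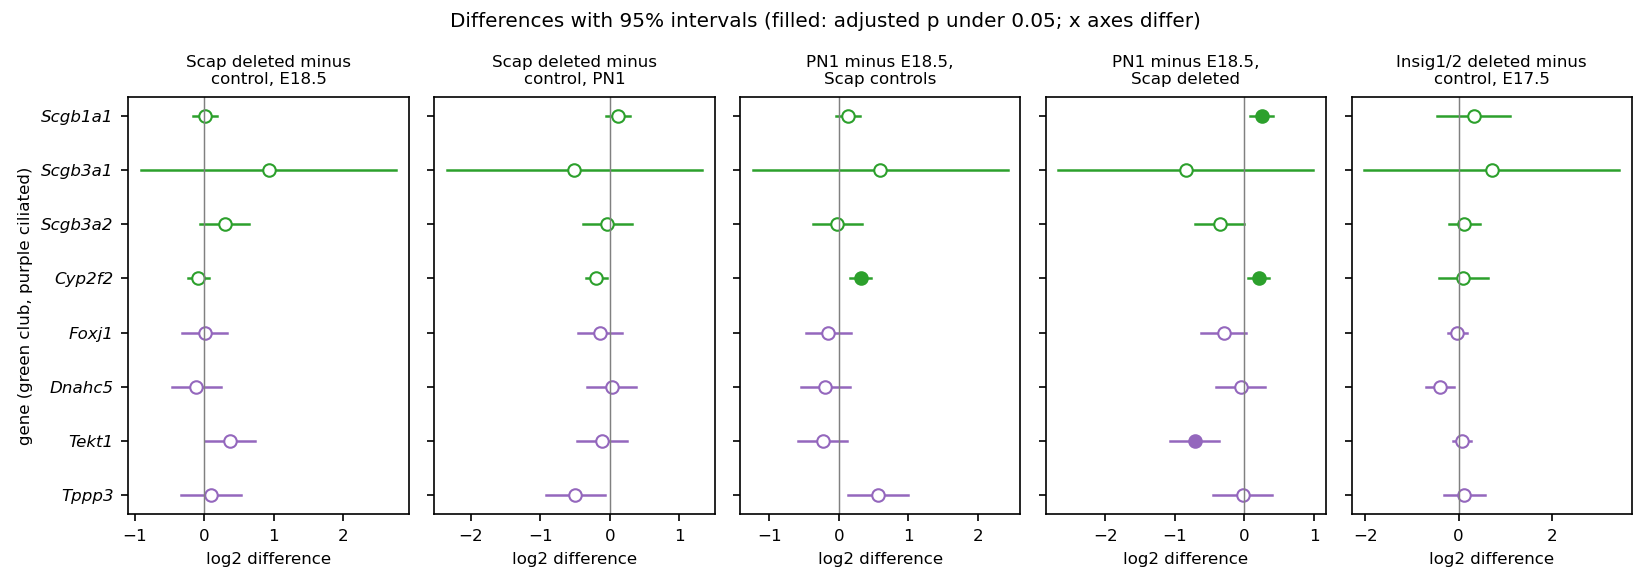
Log2 differences (x axis, a scale of its own in each panel) with 95% intervals from limma for the 8 airway genes (y axis) in 5 comparisons of 3 against 3 lungs, club genes in green and ciliated genes in purple, filled where the adjusted p was under 0.05. The filled points are Cyp2f2 with age in controls and Scgb1a1, Cyp2f2 and Tekt1 with age in Scap Δ/Δ lungs, and the intervals of Scgb3a1 are the widest.

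The 4 ciliated genes did not move as 1 set. Over 18 arrays Tekt1 went with Foxj1 (r = 0.76), while r of Dnahc5 was below 0 with Tekt1 (-0.19), Foxj1 (-0.34) and Tppp3 (-0.77). The 8 other dynein heavy chain genes listed followed Dnahc5 (r from 0.52 to 0.96, closest Dnahc6) and not Tekt1 (r from -0.60 to 0.13). This likeness was not particular to them. Igf2r (r = 0.94), Dsp (0.94), Dnmt3a (0.93) and Nfib (0.93), which are not on the ciliated list, were also among the 8 probe sets closest to Dnahc5. The 99th percentile of r with Dnahc5 over all probe sets was 0.88. Among the 74 remaining ciliated genes 46 had r above 0 with Dnahc5 (median 0.13) and 68 with Tekt1 (median 0.75). With Foxj1 it was 68 (median 0.61) and with Tppp3 35 (median -0.01), so Tppp3 did not follow most listed ciliated genes. Over the 16 arrays other than KO17 and KO18, r of Tekt1 with Foxj1 was 0.60, r of Dnahc5 with Tekt1, Foxj1 and Tppp3 was -0.33, -0.50 and -0.78, and the heavy chain genes had r from 0.69 to 0.97 with Dnahc5 and from -0.58 to -0.02 with Tekt1. The 74 others then had a median r of 0.11 with Dnahc5 and 0.57 with Tekt1. In Insig1/2 Δ/Δ lungs the 8 heavy chain genes were all lower (-0.60 to -0.11), 3 of them without overlap. Of all probe sets 54.4% were above 0 there, and 4.22% were lower without overlap. After Scap deletion all 8 heavy chain genes were lower as well at E18.5 (-0.25 to -0.05), and 3 of 8 were at PN1. Of all probe sets 41.7% were above 0 at E18.5 and 42.1% at PN1. None was called in any of these comparisons.

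Gene span on the genome was set beside the differences, and its relation to the split in r was not tested. Exceptions stood on both sides. Spag16 spans 898261 bases and had r = 0.20 with Dnahc5 and 0.59 with Tekt1. Ift172 spans 38113 bases and had r = 0.89 with Dnahc5 and 0.06 with Tekt1. Dnahc5 spans 317192 bases and Tekt1 17726. Across 16409 single-gene probe sets, the Insig1/2 difference had a Spearman rho of -0.46 with gene span, and -0.52 across 79 ciliated genes. In the other 4 comparisons rho over all genes lay between -0.13 and 0.12, and across 78 ciliated genes it was -0.36 for Scap deletion at E18.5, 0.23 at PN1, 0.03 with age in controls and 0.285 with age in Scap Δ/Δ lungs. By array, rho of span with the deviation from the mean of the same line and age was 0.22 to 0.29 in the 3 Insig controls, 0.14 on KO22, -0.29 on KO23 and -0.39 on KO24. It was as wide on Scap arrays, with 0.46 on KO10 and -0.33 on KO12 at E18.5 and 0.24 on C13 and -0.33 on C14 at PN1. KO22 was also the Insig1/2 Δ/Δ lung with Dnahc5 nearest to the controls. Genes are not independent replicates, genomic span is not transcript length, and the part of RNA or probe quality in the lower Dnahc5 was not tested.

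**Figure D5:**
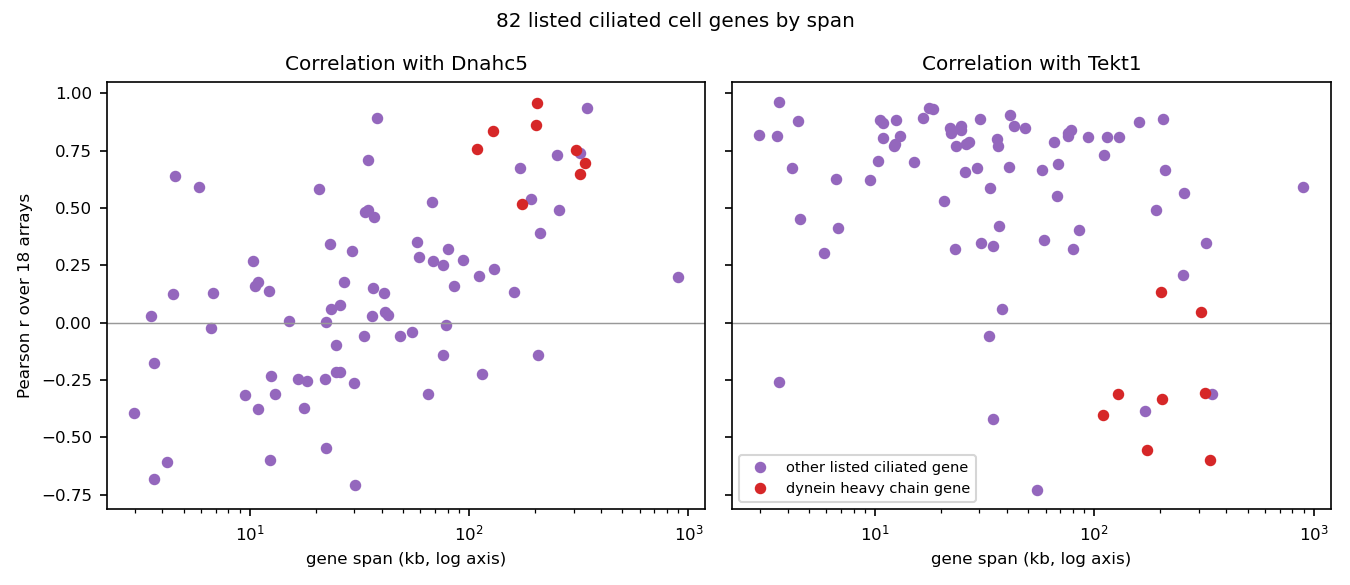
Pearson r over 18 arrays (y axis) between each of 82 listed ciliated cell genes and Dnahc5 (left) or Tekt1 (right), by gene span in kb (x axis, log scale), with the 8 dynein heavy chain genes in red and the other 74 in purple. The heavy chain genes lie at 0.52 to 0.96 with Dnahc5 and at -0.60 to 0.13 with Tekt1.

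By the mean of the 4 club genes, the most similar of 16457 probe sets over 18 arrays were Fabp4 (r = 0.90), S100a1 (0.88), Ctsk (0.86), Gcnt1 (0.86), Myl3 (0.86), Gdpd1 (0.86), Car4 (0.85) and Cbr2 (0.85). Cbr2, a carbonyl reductase of club cells, and Cyp2f2 had r = 0.91. Scgb3a1 carries most of the spread of this mean. By the mean of the 4 ciliated genes they were Clec4a3 (r = 0.94), Zc2hc1a (0.93), Nek5 (0.93), Srp9 (0.92), Hvcn1 (0.92), Slc35a1 (0.92), 2610301B20Rik (0.91) and Igsf6 (0.91). Clec4a3 and Igsf6 are genes of myeloid cells. Macrophage list means were -0.21 and -0.09 on KO17 and KO18 and 0.24 to 0.63 on the other PN1 arrays. Over the 16 other arrays these 8 had r from 0.85 to 0.89. The 99th percentile of r over all probe sets was 0.77 for the club mean and 0.85 for the ciliated mean, and the 18 points share array and normalization.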

How the data were processed

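RNA of whole lung was measured in 18 samples, 3 per group, and groups were taken from the sample labels. The authors deposited log2 expression per probe set, with array medians from 7.42 to 7.70. Summarization and normalization of these values are not given in the sources used here. Probe sets were named from the platform annotation and the RefSeq table of GRCm38.p6 (21789 with 1 symbol, 1621 with several, 12146 with none).

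Following the methods, a probe set was kept if 66% of the arrays or more held it at their 35th percentile or higher. Differences were tested with limma (version 3.58.1, under R 4.3.3), once on the 12 Scap arrays with 4 group means and once on the 6 Insig arrays, with Benjamini-Hochberg adjustment over all probe sets kept. A call is an adjusted p under 0.05. Single genes were also compared by an exact two-sided permutation test, whose smallest p is 0.1. Arrays give no depth, and their number limits the precision. The replicates are separate lungs. The fits were tested on simulated data.

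Lists of other club, ciliated and marker genes were drawn from textbook knowledge, 1 probe set per gene (the highest mean). Members and lists were chosen with earlier results of these data known. Named from the other club and ciliated lists are the genes called (up to 6 per list and comparison, by size) and, for each deletion, the 3 with the largest difference without overlap. Others are marked. Likeness is Pearson r over 18 arrays, for the 8 closest probe sets.

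Alternatives were no filter, a 50th percentile filter, quantile normalization, median centring, a fit of all 18 arrays or of only 6, limma's intensity trend, an unmoderated test (for the Insig line the methods' t-test, for the Scap line the spread of the same 4 groups, since the methods used a two-way analysis of variance there), and arrays left out. Other steps ran in Python 3.11.15 with numpy 2.4.6, pandas 2.3.3 and, for plots, matplotlib 3.10.9. The miRNA arrays and the Scap arrays of E17.5 were not analysed here. Promoter windows were read from RefSeq for the 4 of 8 genes that matched.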

Additional observations from a re-analysis of the deposited data

How the results depend on the processing

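Over the 8 airway genes and 6 comparisons 715 alternative values were computed: 626 kept their direction and their side of the threshold, 28 lost a call, 12 gained one and 49 changed sign. The cause of the changes was not tested. Of probe sets called for Scap deletion at E18.5 (2), 1 was left with no filter, with quantile normalization, with only the 6 arrays or with the unmoderated test, 0 with median centring, and 5 were called with all 18 arrays in 1 fit. For PN1 (2) the counts were 18 with no filter, 2995 with 18 arrays, 0 with only 6 arrays or without KO17 and KO18, and 1 with the unmoderated test. For age in Scap controls (589 probe sets, 1 airway gene) median centring left 292 and 0, and 18 arrays left 0 airway genes. For age in Scap Δ/Δ lungs (8581 and 3) 18 arrays left 1 airway gene, and without KO17 and KO18 1414 and 0 remained. Signs turned as follows. With quantile normalization Foxj1 was -0.020 at E18.5, Scgb3a2 0.082 and Dnahc5 -0.15 at PN1, the interaction of Dnahc5 -0.087, and Tppp3 0.11 with age in Scap Δ/Δ lungs. With median centring, which moved the median of all probe sets at PN1 from -0.06 to -0.19, Scgb1a1 was -0.014 and Dnahc5 -0.10 at PN1, with interactions of -0.061 and -0.030. Without KO17 and KO18, PN1 values were 0.96 for Scgb3a1, 0.10 for Scgb3a2, 0.24 for Foxj1, -0.19 for Dnahc5, 0.34 for Tekt1 and 0.011 for Tppp3, interactions were -0.0055 for Scgb1a1, 0.038 for Scgb3a1, 0.24 for Foxj1 and -0.078 for Dnahc5, and age differences in Scap Δ/Δ lungs were 0.63 for Scgb3a1, 0.087 for Foxj1 and 0.48 for Tppp3. The test without C21 and KO24 was chosen after seeing the data.

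With 1 array left out at a time, probe sets called ranged from 0 to 2 at E18.5, 1 to 14010 at PN1, 0 to 13219 for the interaction, 140 to 489 for age in controls, 1716 to 16316 for age in Scap Δ/Δ lungs and 0 to 0 for Insig1/2. Airway genes called ranged from 0 to 5 at PN1, 0 to 3 for the interaction, 0 to 0 for age in controls and 0 to 5 for age in Scap Δ/Δ lungs. The upper counts at PN1, for the interaction and in Scap Δ/Δ lungs came without KO16. Signs turned within these ranges: at E18.5 Scgb1a1 from -0.018 to 0.053 and Foxj1 from -0.049 to 0.054; at PN1 Scgb3a1 from -1.25 to 0.23, Scgb3a2 from -0.14 to 0.088, Dnahc5 from -0.11 to 0.17 and Tekt1 from -0.34 to 0.027; with age in controls Scgb3a1 from -0.15 to 1.13 and Scgb3a2 from -0.15 to 0.078; with age in Scap Δ/Δ lungs Dnahc5 from -0.19 to 0.058 and Tppp3 from -0.28 to 0.19; and for Insig1/2 Scgb3a1 from -0.27 to 1.69, Cyp2f2 from -0.037 to 0.33, Foxj1 from -0.066 to 0.044 and Tppp3 from -0.027 to 0.31. No paired analysis was possible because the array numbers are not shared between groups.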
